A study of Homo sapiens with 36 samples.

Results

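The transcripts of SCAF4 and SCAF8 were examined in 18 lists of PAR-CLIP clusters, short RNA regions in which crosslinked 4-thiouridine (4SU) left T-to-C changes in sequencing reads. A cluster was counted for a gene when its midpoint lay on the gene's strand and within its GENCODE 44 body on GRCh38. This gave 161 clusters in SCAF4 and 206 in SCAF8, so 367 of the 278185 clusters of all lists. SCAF4 (ENSG00000156304) lies on the minus strand at chr21:31671000-31732118 and SCAF8 (ENSG00000213079) on the plus strand at chr6:154733378-154834244. No cluster was antisense to either gene. The question was how clusters on exons and introns of each gene differ between cell lines that do or do not carry an added copy of it.

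The cells were HEK293 Flp-In T-REx, a human embryonic kidney-derived line with a single site for inserting a transgene and a repressor that doxycycline releases. A first stable line expressed FLAG-SCAF4, a second FLAG-SCAF8, and the parental line carried no FLAG-tagged protein. Each line keeps its own endogenous SCAF4 and SCAF8 genes, and FLAG IP of the parental line is called control IP. All cells received 100 μM 4SU overnight and 500 μM for 2 h before 2000 J/m2 of UV light. The labels give 100 ng/mL doxycycline for both tagged lines and no dose for the parental line, whereas the methods give a higher dose, and for all cells. Which dose was used is not settled by these sources. IP and input RNA were taken from soluble and chromatin fractions in 3 replicates, and reads of both fractions were joined, giving 36 libraries in 18 lists. The lists hold 4567 to 12493 clusters for inputs, 18287 to 54404 for SCAF4 IP and SCAF8 IP, and 1621 to 9638 for control IP. Read depth is unknown because the lists hold no reads. The study calls the replicates biological, and nothing in the labels says whether they were separate cultures, so a p-value measures the spread between these lists. An IP list and the input list of the same number were taken to share an extract. This was inferred from their titles and the paper's methods, and is not stated. Of 4 HEK293 marker genes, VIM had exon clusters in 16 of 18 lists and LIN28B in 10, while NEFM and PAX2 had none.

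SCAF4 and SCAF8 are paralogous RNA-binding proteins of the nucleus. An amino-terminal domain of each contacts the carboxy-terminal domain (CTD) of RNA polymerase II, and a further domain contacts RNA. Per the paper, both suppress early polyA sites of nascent mRNAs, SCAF4 also acts in termination at the gene's end, and SCAF8 promotes elongation. A spliced mRNA holds exons alone, whereas nascent RNA on chromatin also holds introns. The transgenes were cloned from coding regions, so a copy of either gene can add reads to its coding exons, while introns and most of the UTRs belong to the endogenous gene. Within coding exons, RNA of the transgene and of the endogenous gene cannot be told apart in these lists.

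The coding regions were first cloned with primers that set their outer ends. Per the paper, FLAG-SCAF4 was then amplified again with further primers, which were not examined here. The paper also describes SCAF8 constructs of 2 isoforms, and which of them the FLAG-SCAF8 line holds is not stated. The gene-specific parts of the first primers are shown because they mark the outer ends of the cloned coding regions. Each matched its gene once.
SCAF4 forward, chr21:31731669-31731692, minus strand: atggacgccgtcaacgccttcaac
SCAF4 reverse, chr21:31671400-31671422, plus strand: taacgaggagcctctgctgctga
SCAF8 forward, chr6:154733423-154733446, plus strand: atgccgcagccgctgctgccagcg
SCAF8 reverse, chr6:154833372-154833395, minus strand: ttatgtcccctcagtttctgtgct
The SCAF4 forward primer starts at the start codon of the MANE Select transcript, the reference isoform used here for exons and introns. The SCAF8 forward primer starts at −478 nt relative to the start codon of the MANE Select isoform, at the start codon of 2 other annotated isoforms. Part of the 5′ UTR of SCAF8, as annotated in the MANE Select isoform, may therefore be in the transgene. Both reverse primers lie at the stop codon. Both genes have 20 exons, with 3441 coding nt in SCAF4 and 3813 in SCAF8.

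Coding exons of each gene were mostly covered by clusters in the line that carried its transgene, in input as well as in IP. Clusters covered 79.5%, 81.4% and 82.0% of the SCAF4 coding sequence in the 3 SCAF4 inputs. In the SCAF8 inputs the values were 3.92%, 8.63% and 20.1%, and in the control inputs 7.09%, 0% and 3.31%. All SCAF4 inputs were thus far above all inputs of the other lines. The mean was 81.0% ± 1.33 (SD, n = 3) for FLAG-SCAF4 and 7.17% ± 7.00 (SD, n = 6) in the others. The difference of 73.8 percentage points had an exact two-sided permutation p of 0.0119, the smallest that 84 splits of the labels allow. Adjusted over the 20 comparisons made for the 2 genes (Benjamini-Hochberg), this p was 0.0298.

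The same held for SCAF8 in its own line. Clusters covered 59.9%, 88.6% and 88.8% of the SCAF8 coding sequence in SCAF8 inputs. In SCAF4 inputs the values were 0%, 0% and 4.25%, and in control inputs 4.93%, 0% and 0%. SCAF8 input of replicate 1 was lower than its 2 replicates but still above every input of the other lines. The difference in means was 77.6 percentage points (79.1% ± 16.6, n = 3, against 1.53% ± 2.38, n = 6; SD; exact permutation p = 0.0119, adjusted p = 0.0298).

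In IP lists the coding sequence of the tagged gene had a higher mean coverage than in its inputs, which was not tested. The means were 91.8% against 81.0% for SCAF4 and 89.5% against 79.1% for SCAF8, where IP and input lists overlapped. Scaled to 10000 clusters of the list, the order of the means was reversed. They were 30.2 in IP and 133 in input for SCAF4, and 35.2 and 83.2 for SCAF8. SCAF4 IP covered 85.6%, 94.9% and 94.8% of the SCAF4 coding sequence, against 11.3%, 14.5% and 31.0% in SCAF8 IP and 19.0%, 2.30% and 2.30% in control IP. SCAF8 IP covered 87.0%, 89.6% and 91.8% of the SCAF8 coding sequence, against 17.7%, 51.2% and 34.9% in SCAF4 IP. All 3 control IP lists were at 0% of the SCAF8 coding sequence. No list of another line reached the lowest list of the tagged line in percent covered. Per 10000 clusters of the list, the SCAF4 lists overlapped, with a lowest SCAF4 IP value of 17.4 and a highest value of 19.7 in the other lines (exact permutation p = 0.0238). The differences were 78.4 percentage points for SCAF4 and 72.2 for SCAF8 (each with exact permutation p = 0.0119 and adjusted p = 0.0298).

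Such a separation was rare among other genes in the inputs. Every list of the FLAG-SCAF4 line lay above every list of the other lines for 14 of 3656 protein-coding genes with a covered coding sequence (0.383%) in input and for 653 of 8061 (8.1%) in IP. For the FLAG-SCAF8 line the shares were 1.7% in input and 0.682% in IP. By the size of the difference SCAF4 ranked 1 of 3656 genes in input and 1 of 8061 in IP of its line. The next gene in input, BEX3, differed by 55.1 percentage points. SCAF8 ranked 2 of 3656 in input, after NDUFB1 at 82.8, and 1 of 8061 in IP. The plot of differences over all genes shows both members at the upper end of each distribution.

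**Figure D1:**
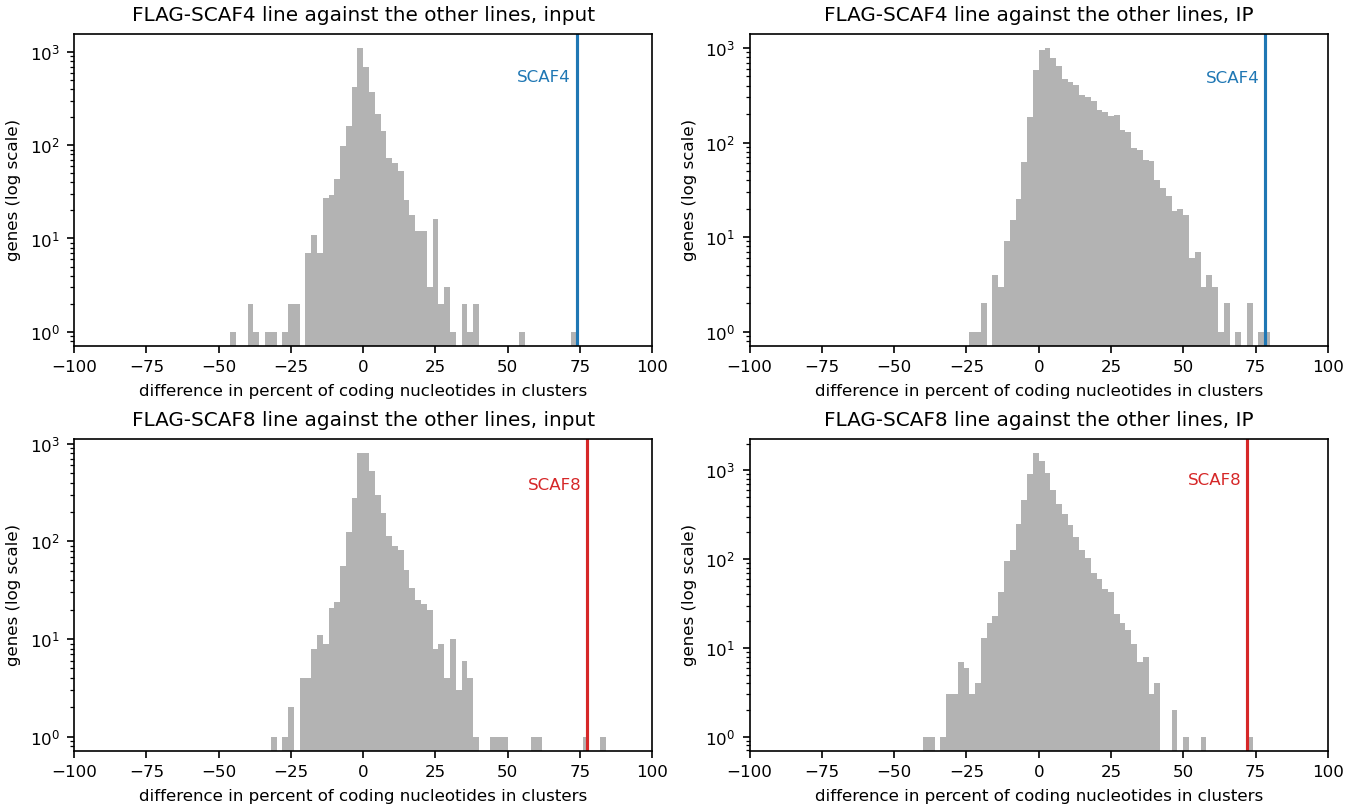
Histograms of the difference in percent of coding nucleotides in clusters between the line named in each panel and the other lines, over protein-coding genes (x axis, percentage points; y axis, number of genes on a log scale). The coloured line marks SCAF4 at 73.8 in input and 78.4 in IP, and SCAF8 at 77.6 in input and 72.2 in IP, each among the highest values of its panel.

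UTR exons, which the transgenes lack in whole or in most part, gave lists that overlapped between lines. SCAF4 UTR exons were covered to 6.52%, 0% and 8.70% in SCAF4 inputs and to between 0% and 9.06% in the 6 inputs of the other lines. SCAF8 UTR exons were covered to 9.44%, 13.5% and 0.304% in SCAF8 inputs and to between 0% and 16.7% in the others. Neither gene's UTR exons set the tagged line apart. The differences were 2.07 percentage points for SCAF4 (exact permutation p = 0.643) and 0.60 for SCAF8 (exact permutation p = 0.893). In IP the UTR difference was 15.5 for SCAF4 (exact permutation p = 0.0952), where 29.7% and 31.9% in replicates 2 and 3 of SCAF4 IP stood above 0% in replicate 1. For SCAF8 it was −0.41 in IP (exact permutation p = 1).

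Coding coverage minus UTR coverage, taken within each list, compares parts of a gene under the same library. For SCAF4 this was 71.7 percentage points higher in input and 62.9 higher in IP of the FLAG-SCAF4 line than in the other lines. For SCAF8 it was 77.0 higher in input and 72.6 higher in IP of the FLAG-SCAF8 line. All 4 comparisons had an exact permutation p of 0.0119 and an adjusted p of 0.0298, with no overlap of lists. When clusters scored under their list's median were dropped, only the SCAF4 difference in input kept its call, while the others were 19.8 for SCAF4 in IP (exact permutation p = 0.0595) and 4.11 in input and 14.3 in IP for SCAF8 (exact permutation p = 0.31 and 0.238). By this measure the lists did not overlap in 0.517% and 7.68% of genes for the FLAG-SCAF4 line in input and IP, and in 0.905% and 0.609% for the FLAG-SCAF8 line.

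The scores of these clusters were low within their lists. The deposited score, whose meaning is not named, had a median of 0.823 over the 48 SCAF4 coding clusters of the SCAF4 inputs and of 0.832 over the 48 SCAF8 coding clusters of SCAF8 IP. Medians over whole lists were 0.995 to 0.999. In ranks within a list, coding clusters of a gene in its own tagged line had a median percentile of 14.6 to 26.0 in the 4 sets of input and IP lists. The 28 SCAF8 coding clusters in IP of the other lines had a median percentile of 59.3. For SCAF4 coding clusters in the other lines it was 35.6 in IP (18 clusters) and 43.3 in input (9 clusters). When clusters scored under their list's median were dropped, the SCAF8 difference in IP was 13.2 percentage points (exact permutation p = 0.345). The SCAF8 difference in input fell to 5.46 (exact permutation p = 0.0238), with a mean of 6.99% in SCAF8 inputs. Its lists then overlapped, with a lowest SCAF8 input of 4.59% and a highest input of the other lines of 4.93%. The SCAF4 differences fell to 31.9 in input and 35.2 in IP.

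**Figure D2:**
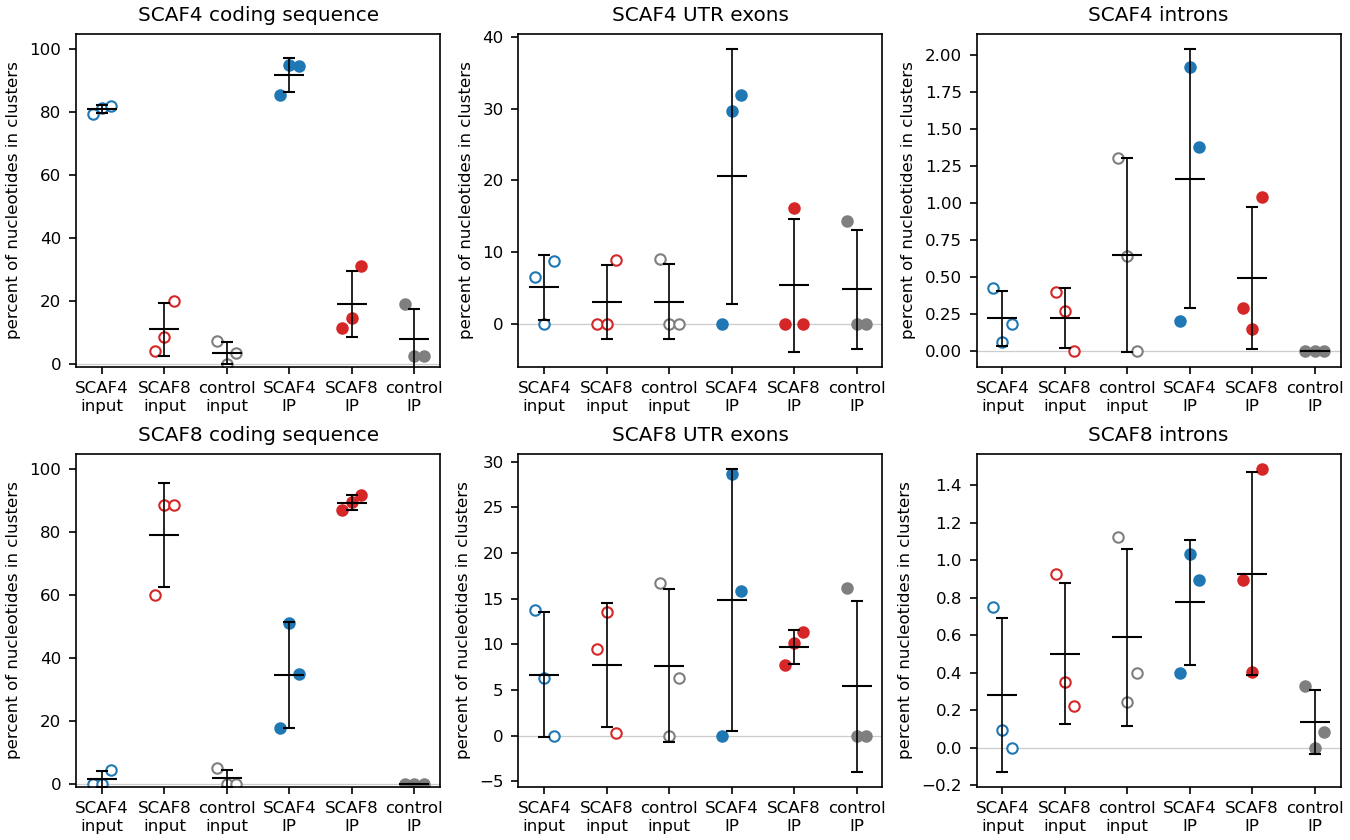
Percent of nucleotides in clusters (y axis) for the coding sequence, UTR exons and introns of SCAF4 (top) and SCAF8 (bottom) in each group of lists. Circles are single lists, open for input and filled for IP, and bars give the mean ± SD of 3 lists, on scales that differ between panels. Coding sequences reach 59.9% to 94.9% in the line that carries the gene's transgene.

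Along the mRNA, coverage of the tagged line was an exon-by-exon pattern. In SCAF4, 14 of 20 exons held clusters on their coding part in all 6 lists of the FLAG-SCAF4 line, and 12 exons held such clusters in that line alone. Exons 1 and 3 held none in any list. Exon 1 has 30 coding nt and exon 3 is 45 nt long. Exons 2, 9 and 18, of 84, 109 and 87 nt, were covered in SCAF4 IP of replicates 2 and 3 alone. Exon 11, of 86 nt, was of similar length and was covered to 99.0% on average over the 6 lists.

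In SCAF8, 8 of 20 exons held coding clusters in all 6 lists of the FLAG-SCAF8 line, and 7 exons held coding clusters in lists of that line alone, 3 of them in all 6. SCAF8 input of replicate 1 held clusters on 8 coding exons, against 16 in each of the other inputs. Exons 1, 2, 3 and 18 held no coding cluster in any list; exon 18 is 69 nt long. Exons 2, 3 and 18 contain 20, 15 and 17 T, the base that 4SU replaces, and exons covered in all 6 lists contain 26 or more. Exon 8, with 20 T, held clusters in 5 lists. SCAF4 did not show such an order: its exon 11, with 19 T, held clusters in all 6 lists of its own line. SCAF4 exons 2, 9 and 18, with 27, 21 and 22 T, held them in 2 lists each. Whether T content bears on coverage was not tested. The map of exons by list shows most exons of each gene filled in its own line.

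**Figure D3:**
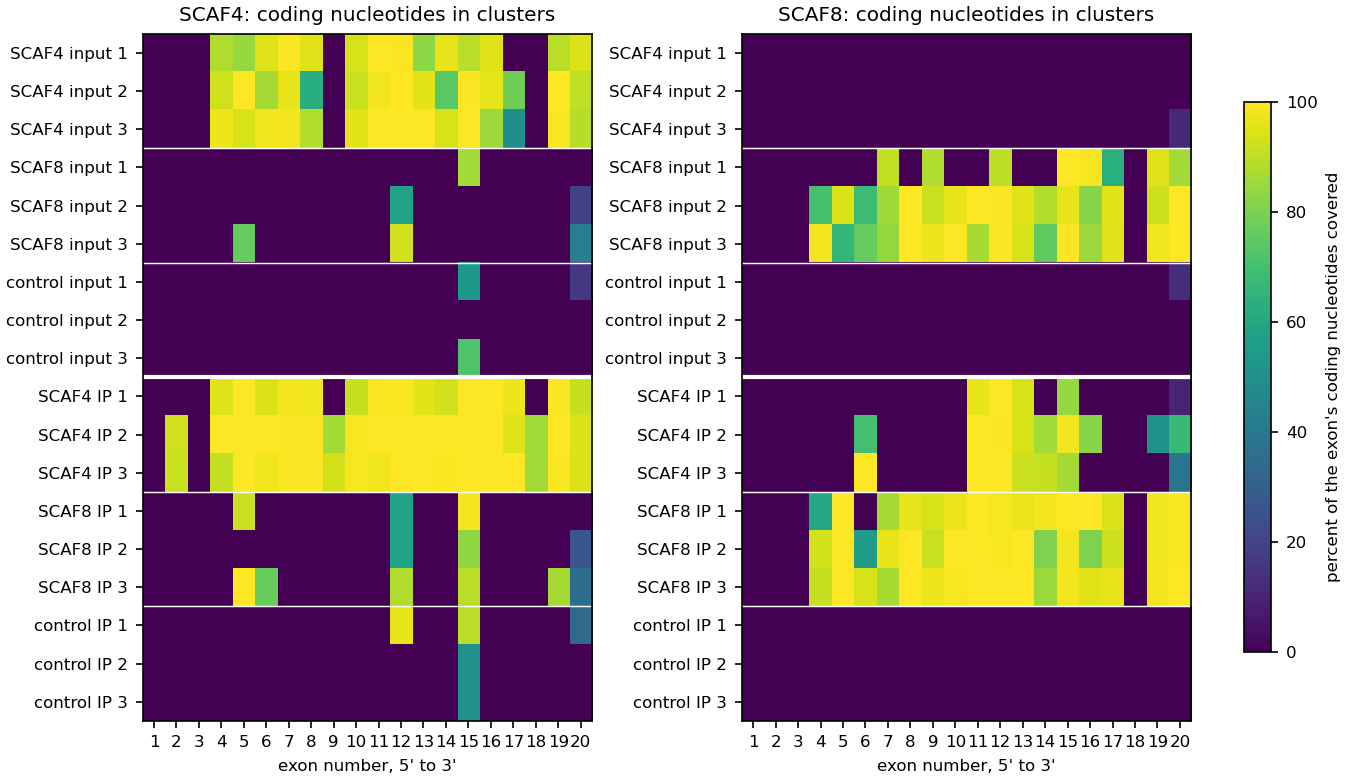
Percent of each exon's coding nucleotides in clusters (colour, 0 to 100) for the 20 exons of SCAF4 (left) and SCAF8 (right), numbered from the 5′ end, in each of the 18 lists. Most exons from exon 4 on are filled in the gene's own tagged line (SCAF4 exons 9 and 18 are empty in 4 of 6 lists, SCAF8 exon 18 in all), and in the other lines single exons such as SCAF4 exon 15 and SCAF8 exon 15 stand out.

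Part of the coding clusters of the tagged line ended at exon edges on both sides. Of 100 SCAF4 coding clusters in the FLAG-SCAF4 line, 40 (40%) had both ends within 5 nt of an exon edge, as had 33 of 91 SCAF8 coding clusters (36.3%) in the FLAG-SCAF8 line. In the other lines this was so for 3 of 27 (11.1%) and 1 of 30 (3.33%). These counts pool clusters over lists, and the share over other genes was not computed. Each gene has 38 internal exon edges. An edge was counted as covered when the base 5 nt inside the exon was in a cluster, and as crossed when the base 15 nt into the intron was also in one.

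Over the 6 lists of the FLAG-SCAF4 line, 18 of 143 covered SCAF4 edges were crossed. Over the 6 lists of the FLAG-SCAF8 line, 12 of 117 covered SCAF8 edges were crossed. In the same lists, 31.3% to 51.3% and 29.9% to 50.0% of the covered edges of all other protein-coding genes were crossed. The share was lower for the tagged gene in 6 of 6 lists, with a mean difference of −29.3 percentage points ± 2.96 (SD, n = 3 replicates, each the mean of its IP and input) for SCAF4 and −31.6 ± 2.50 for SCAF8. Exact two-sided sign flips over the 3 replicates gave p = 0.25 for each, the smallest they allow, so this design cannot reach 0.05. For SCAF4, no covered edge was crossed in the other lines either, 0 of 16 over 12 lists. These 16 count the same few edges again in several lists, and exon 15 alone was covered in 9 of these lists. They give no share for SCAF4 edges in general.

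SCAF8 differed in this respect between the tagged lines. In SCAF4 IP, 2 of 5, 4 of 11 and 4 of 9 covered SCAF8 edges were crossed (40%, 36.4% and 44.4%). In SCAF8 IP the counts were 4 of 23, 3 of 23 and 3 of 24 (17.4%, 13.0% and 12.5%). The difference of 26.0 percentage points had an exact permutation p of 0.1, the smallest that 3 against 3 lists allow.

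**Figure D4:**
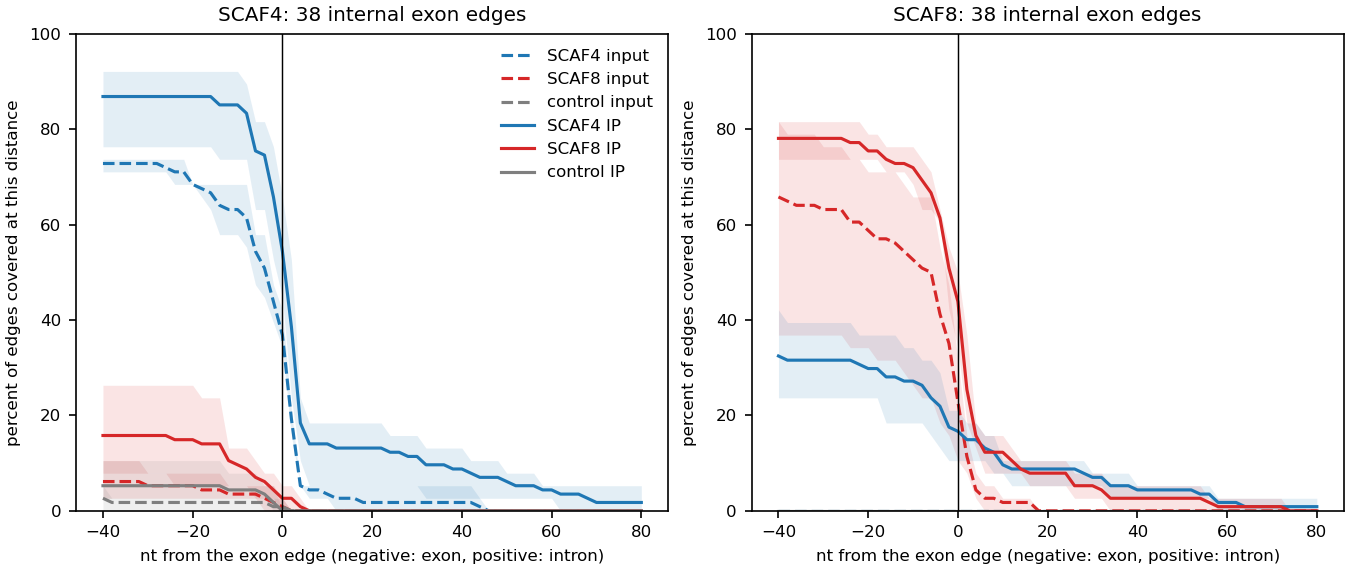
Percent of the 38 internal exon edges of SCAF4 (left) and SCAF8 (right) in clusters, by distance from the edge in nt (negative in the exon, positive in the intron). Lines are means of 3 lists, solid for IP and dashed for input, and shading spans the lowest to highest list. In the tagged line coverage drops at the edge, where 18 of 143 covered SCAF4 edges and 12 of 117 covered SCAF8 edges were crossed 15 nt into the intron.

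At the end of the coding region, clusters of the FLAG-SCAF8 line stopped close to the last coding base of SCAF8. They reached 2, 15 and 4 nt past this base in SCAF8 inputs and 3, 3 and 54 nt in SCAF8 IP. The first 3 of these nt are the stop codon, which the reverse primer includes. Of the other lines, only SCAF4 IP of replicate 2 held a cluster across the last coding base, and it reached 10 nt past it. A close stop was thus not limited to the tagged line. A separate site in the SCAF8 3′ UTR (chr6:154833743-154833967) held clusters in 11 lists, 6 of them inputs. It thus lies past the reverse primer and was found in every line. In SCAF4, clusters reached 54, 0 and 72 nt past the last coding base in SCAF4 inputs and 0, 103 and 129 nt in SCAF4 IP, and clusters of other lines reached up to 133 nt. The last exon of SCAF8 overlaps the start of TIAM2 on the same strand, over 696 coding nt. Without them the SCAF8 differences were 73.8 in input and 71.4 in IP, and exons of the TIAM2 MANE Select transcript held clusters in 0 of 18 lists.

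Exons of the gene that a line does not carry as a transgene belong to its endogenous RNA. SCAF8 exons, UTR included, were covered to 13.1%, 45.4% and 30.0% in SCAF4 IP. In SCAF4 inputs the values were 3.51%, 1.62% and 3.16%, and in control IP 4.15%, 0% and 0%. Every SCAF4 IP list was above every SCAF4 input. The difference of 26.8 percentage points had an exact permutation p of 0.1, the smallest possible, with an adjusted p of 0.154. Such a separation was common, since 41% of 7982 protein-coding genes with covered exons showed it. SCAF4 IP lists also hold more clusters than their inputs. Per 10000 clusters of the list, the coverage was 8.04 in IP and 4.25 in input on average. The lowest IP value was 6.92 and the highest input value 6.59 (exact permutation p = 0.1). The share of genes that separate by this scaled measure was not computed.

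The SCAF8 exons in question were few and recurred. In all 3 SCAF4 IP lists 5 exons held coding clusters, among them exons 11, 13, 15 and 20, and 9 exons did in at least 1 list. None of these exons but exon 20 was covered in SCAF4 input, control input or control IP. SCAF8 exon 15, at chr6:154820177-154820333, was covered to 84.1%, 98.1% and 86.6% in SCAF4 IP. IP minus input of SCAF8 exons was 26.8 percentage points for FLAG-SCAF4 cells and −1.80 for parental cells, a difference of 28.6. By replicate it was 9.64, 43.8 and 26.9 for FLAG-SCAF4 cells and −3.78, 0 and −1.62 for parental cells, without overlap (exact permutation of the line labels, p = 0.1, the smallest possible, adjusted p = 0.2 over 4 such comparisons). This comparison was added after the values had been seen. SCAF4 IP lists are larger than their inputs, whereas control IP lists are smaller than theirs. The share of all genes without overlap in this comparison was not computed, so the result is not shown to be particular to SCAF8.

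SCAF4 exons in the FLAG-SCAF8 line gave a smaller difference. They were covered to 9.14%, 14.8% and 24.9% in SCAF8 IP and to 3.16%, 6.96% and 17.9% in SCAF8 inputs. These lists overlapped. The difference of 6.95 percentage points had an exact permutation p of 0.4, where 28.2% of 7292 genes had lists that did not overlap. Per 10000 clusters of the list the difference was −4.11. Exons 12 and 15 of SCAF4 held clusters in all 3 SCAF8 IP lists. Exon 15 also held clusters in all 3 control IP lists and in 15 lists in all, the most of any SCAF4 exon.

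Exon 15 is shown for both genes, with 20 nt of intron on each side, because this pair of equal length, 157 nt, was found in IP of the opposite line for both. Capitals mark the exon.
SCAF4 exon 15, chr21:31690777-31690973, minus strand, GRCh38: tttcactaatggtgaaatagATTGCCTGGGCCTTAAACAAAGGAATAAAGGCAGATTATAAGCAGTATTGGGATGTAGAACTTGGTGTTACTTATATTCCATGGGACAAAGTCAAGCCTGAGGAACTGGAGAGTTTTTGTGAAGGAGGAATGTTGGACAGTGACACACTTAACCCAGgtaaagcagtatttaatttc
SCAF8 exon 15, chr6:154820157-154820353, plus strand, GRCh38: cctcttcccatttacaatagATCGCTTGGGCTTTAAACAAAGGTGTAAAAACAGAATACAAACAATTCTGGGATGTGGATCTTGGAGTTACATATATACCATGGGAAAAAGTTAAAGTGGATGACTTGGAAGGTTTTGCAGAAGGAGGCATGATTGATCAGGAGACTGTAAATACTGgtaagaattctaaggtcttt
The paralogs have 7 pairs of same-numbered exons of equal length, with 44.1% to 75.9% identical bases position by position. Exon 15 has 70.7%. The longest run of identical bases in any same-numbered pair of exons was 17 nt, in exon 4, where neither gene had clusters in IP of the opposite line.

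Introns held 30 of the 161 SCAF4 clusters and 72 of the 206 SCAF8 clusters. SCAF4 introns were covered to 0.20%, 1.92% and 1.38% in SCAF4 IP and to 0.29%, 0.15% and 1.04% in SCAF8 IP. In inputs of these lines the values were 0.42%, 0.06% and 0.18% for FLAG-SCAF4 and 0.398%, 0.269% and 0.0018% for FLAG-SCAF8. Control inputs gave 1.30%, 0.64% and 0%, and no control IP list covered a SCAF4 intron. IP and input lists overlapped, and the values of 2 of the 3 control inputs lay within the range of the tagged IP lists. The difference between tagged IP and inputs was 0.61 percentage points (0.83% ± 0.73 against 0.22% ± 0.17, SD, n = 6 each; exact permutation p = 0.0952, adjusted p = 0.154). Between lines, SCAF4 introns differed by 0.92 in IP (exact permutation p = 0.0357, adjusted p = 0.0794) and by −0.21 in input (exact permutation p = 0.56).

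SCAF8 introns were covered to 0.40%, 1.03% and 0.89% in SCAF4 IP and to 0.89%, 0.41% and 1.49% in SCAF8 IP. The values were 0.75%, 0.09% and 0% in SCAF4 inputs and 0.93%, 0.35% and 0.22% in SCAF8 inputs. These lists overlapped too. The difference was 0.46 percentage points (exact permutation p = 0.0628, adjusted p = 0.126). Without replicate 1 of every group it was 0.79 (exact permutation p = 0.0286). Of 7379 genes with covered introns, 8.35% had all tagged IP lists above all inputs, and neither SCAF4 nor SCAF8 was among them. Per 10000 clusters of the list the differences were −0.04 for SCAF4 and −0.14 for SCAF8. Between lines, SCAF8 introns differed by 0.47 in IP (exact permutation p = 0.214) and 0.07 in input (exact permutation p = 0.786).

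Merged over lists, intron clusters formed 17 sites in SCAF4 and 22 in SCAF8. First introns, of 25305 and 40058 nt, held 7 and 19 of them. Of the SCAF8 sites 14 were seen in at least 1 input, and 10 in a single list. The most frequent, in intron 1 and 21870 nt from exon 1, held clusters in 13 lists, among them all 6 tagged IP lists, all 3 control inputs and control IP of replicate 1. A second site, 20464 nt from exon 1 (chr6:154754332-154754456), held clusters in 10 lists. Sites in tagged IP lists without any input or control IP cluster numbered 8 in SCAF4 and 7 in SCAF8. Of these, 3 and 2 were found in at least 2 tagged IP lists. Sites in inputs alone numbered 5 in each gene, from lists with fewer clusters than tagged IP. The share of such sites over other genes was not computed. The most frequent SCAF8 site is shown, with capitals for the bases shared by all its clusters.
SCAF8 intron 1 site in 13 lists, chr6:154755735-154755865, plus strand, GRCh38: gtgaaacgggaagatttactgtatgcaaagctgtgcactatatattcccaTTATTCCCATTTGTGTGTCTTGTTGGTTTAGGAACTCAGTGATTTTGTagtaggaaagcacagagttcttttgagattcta
Near the gene start, SCAF4 IP of replicates 2 and 3 held a cluster in the 5′ UTR of SCAF4 (chr21:31731771-31732014), and 1 SCAF4 IP and 1 SCAF8 IP list held a cluster in that of SCAF8 (chr6:154733642-154733819).

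Both genes left the set of consensus regions when clusters were filtered on input. SCAF4 IP had 21 regions in SCAF4 and 14 in SCAF8 with clusters of at least 2 of 3 replicates, of which 18 and 10 had their midpoint in coding sequence. SCAF8 IP had 5 in SCAF4 and 21 in SCAF8. Overlap with more than 1 of the 9 input lists removed all but 5, 0, 1 and 2 of them. The genes held 25 and 31 merged input regions, or 3.84 and 2.96 per 10 kb, above the limit of 1 per 10 kb, so that no region was left. With parental inputs alone, the density was 1.23 and 1.14 per 10 kb, and again no region was left. Before the density step, 20, 10, 4 and 18 regions had then remained. The share of other genes that lose all regions by these filters was not computed, so the loss is not shown to be particular to SCAF4 and SCAF8.

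Genes for other CTD-associated proteins were counted in the same way. Of PCF11, RPRD1A, RPRD1B, RPRD2, CHERP, U2SURP, SCAF1 and SCAF11, 0 of 8 had coding coverage that separated a tagged line from the other lines in input, and 1 of 8 did in SCAF4 IP. Over all genes the shares were 0.383% and 1.7% in input and 8.1% in SCAF4 IP, so counts this low are near the background for a list of 8. This was SCAF11, a splicing-associated protein, with 9.52%, 11.6% and 6.61% in SCAF4 IP, 6.40%, 6.47% and 6.29% in SCAF8 IP, and 0% to 3.78% in control IP. The lowest SCAF4 IP value exceeded the highest SCAF8 IP value by less than the spread of SCAF4 IP.

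Among 3502 other genes with a coding sequence covered in at least 6 lists, those most like SCAF4 over the 18 lists were SLC25A1 (Pearson r = 0.81), HOXA9 (0.80) and MTPN (0.80). Their mean coding coverage was 5.11%, 28.2% and 31.7% in SCAF4 input, below the 81.0% of SCAF4. Those most like SCAF8 were NUP93 (0.85), ZNF417 (0.83) and RFWD3 (0.81), with 4.59%, 25.4% and 23.3% in SCAF8 input, below the 79.1% of SCAF8. These values describe 18 lists that share lines and differ in size. SCAF4 and SCAF8 themselves had r = −0.16.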

How the data were processed

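The deposited files were 18 BED lists of clusters with an unnamed score from 0.501 to 1 per cluster; the score was used as the authors deposited it, to rank clusters within a list. Per the labels and the paper's methods, the authors trimmed reads, aligned them to GRCh38 without splicing with Bowtie2 2.2.9, removed duplicates with Picard, joined both fractions of a replicate and ran PARalyzer, with minimum numbers of reads and of T-to-C changes. A read across a splice junction can be lost in such an alignment. Lists were not yet filtered on input or control IP. Replicate 1 was sequenced with longer reads than replicates 2 and 3.

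From these files, the percent of nucleotides of coding sequence, UTR exons and introns of MANE Select transcripts (GENCODE 44) in clusters of the same strand was computed with Python 3.11.15, numpy 2.4.6, pandas 2.3.3 and pysam 0.24.0, reading starts as 0-based. Of cluster starts, 2451 fell on an exon start when read so and 2086 when read as 1-based. Groups were compared by exact two-sided permutation of list labels on the difference in means, with Benjamini-Hochberg adjustment over 20 comparisons. Scripts were tested on simulated data. Named genes were the 2 members, the list of CTD-associated genes and the 3 genes most correlated with each member. Consensus regions followed the study's filters, with merged input regions counted in the gene and 2 kb on each side. Alternatives were a score limit, cluster numbers, scaling to list size, the longest isoform, the replicate number as a block, leaving out lists, and parental lists alone; the 3′ UTR alone and SCAF8 without the TIAM2 overlap were added after seeing the data, as were the comparisons of exon edges and of IP minus input between lines. The members, lists and tests were chosen with earlier results of these data known. No 2 replicate lists were identical. Same-numbered IP and input lists of a line were taken to come from 1 extract, which was inferred from their titles and is not stated. They were therefore kept together as 1 replicate in the comparisons of exon edges and of IP minus input. Between lines, same-numbered lists were not treated as pairs except in the replicate block.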

Additional observations from a re-analysis of the deposited data

How the results depend on the processing

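The 4 coding differences and the 4 differences of coding minus UTR coverage kept their direction in every alternative run. Permuting labels within replicate numbers (replicate block) left all 8 at an exact p of 0.037, the smallest possible, with differences of 73.8, 78.4, 71.7 and 62.9 for SCAF4 (coding input, coding IP, coding minus UTR input, coding minus UTR IP) and 77.6, 72.2, 77.0 and 72.6 for SCAF8 in the same order; it changed no call. Of 9 same-numbered pairs of IP and input, 5 had deviations from the group means that correlated above 0.1 (−0.06 to 0.50). For IP against input of extracts taken as shared, the block gave exact p of 0.157 and 0.102 for SCAF4 and SCAF8 introns. For both exon differences the block gave an exact p of 0.25, and no call changed. Without the first replicates of all groups the differences were 73.7, 82.4, 71.6 and 55.6 for SCAF4 and 87.6, 69.1, 83.8 and 69.5 for SCAF8, with an exact p of 0.0667, the smallest possible. Against parental lists alone they were 77.5, 83.9, 75.4 and 68.2 for SCAF4 and 77.4, 89.5, 77.3 and 85.1 for SCAF8, at the smallest possible exact p of 0.1. With scores at or above the list median, 4 calls were lost. They were SCAF8 coding in IP (13.2), SCAF4 coding minus UTR in IP (19.8) and SCAF8 coding minus UTR in input (4.11) and IP (14.3). The SCAF8 coding difference in input kept its call at 5.46, but its lists overlapped. The cause of these changes was not tested.

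Leaving out 1 list at a time gave differences of 72.4 to 76.4, 76.2 to 81.9, 69.0 to 73.2 and 55.8 to 67.5 for SCAF4 and 72.7 to 87.1, 68.7 to 78.9, 68.4 to 87.4 and 67.9 to 75.6 for SCAF8, none of which lost its call. The intron differences between tagged IP and inputs ranged from 0.39 to 0.74 for SCAF4 and 0.33 to 0.57 for SCAF8, with exact p from 0.0281 to 0.158 and 0.0325 to 0.139. The exon differences between IP and input of the opposite line ranged from 18.8 to 35.0 for SCAF8 and 2.62 to 11.2 for SCAF4. Scaling to list size reversed the intron differences (−0.041 for SCAF4, −0.14 for SCAF8) and the SCAF4 exon difference in the FLAG-SCAF8 line (−4.11), and leaving out the first replicates raised the SCAF8 intron difference to 0.79. SCAF4 IP regions in SCAF8 fell from 14 to 6 when all 3 replicates were required, and SCAF8 IP regions in SCAF4 from 5 to 2, or to 3 without replicate 1; no setting left a region after all filters. Depth is unknown, and clusters below the authors' read limits cannot be seen, so an uncovered exon is not shown to lack reads.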
